A study of Homo sapiens with 36 samples.

Results

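The second of the SCD siRNAs, siSCD_2, was tested against the control siRNA siCTR in 501mel, an established human melanoma cell line with high expression of the pigment cell programme. The comparison took the 3 libraries labelled siSCD_2 and the 3 labelled siCTR of that line at 48 h, 6 of the 36 libraries in the series. Both groups were grown in RPMI with 10% serum and 10% CO2 and received 20 nM siRNA, so both had been transfected and they differ, per the labels, only in the siRNA. The other libraries were of 501mel and IGR37, another human melanoma line, with siRNAs or with the SCD inhibitor labelled A939372 at 1 uM or its solvent DMSO. Messenger RNA was counted at its 3' ends with QuantSeq, which gives about 1 tag per transcript. The labels name neither the siRNA sequences nor whether the 3 libraries of a group came from separate cultures, so p-values measure the spread between libraries within groups. That spread was estimated from 24 libraries of both lines fitted together, and not from these 6 alone.

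Stearoyl-CoA desaturase, encoded by SCD, turns saturated fatty acids into monounsaturated ones and so sets how fluid the phospholipids of the cell are. Cells that lack desaturation can take up unsaturated fat from serum, desaturate palmitate by FADS2, or meet the excess of saturated lipid with stress signalling from the endoplasmic reticulum (ER) and with the kinases that phosphorylate eIF2 alpha, which favour translation of the transcription factor ATF4. In melanoma, SCD is known as a gene of the differentiated state governed by MITF, the master regulator of the pigment cell lineage.

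The 6 libraries held 4452947 to 5190427 reads on genes, and 3 reads, taken as the limit that a count of 0 allows, stood for 0.544 to 0.618 CPM (reads scaled to a fixed total per library). All 9 melanocytic marker genes were measured, at a summed 4235 to 4357 CPM with siCTR and 3647 to 4013 CPM with siSCD_2. Of 10 epithelial, 10 fibroblast and 13 blood and endothelial markers, 2, 5 and 3 were measured. The epithelial markers summed to 5.24 to 8.43 CPM with siCTR and 2.63 to 3.72 CPM with siSCD_2. Fibroblast markers summed to 10.8 to 13.4 CPM and 15.7 to 19.0 CPM, with DCN at 0 with siSCD_2. Blood and endothelial markers summed to 42.6 to 80.1 CPM and 23.2 to 30.6 CPM, with PECAM1 at 0 with siCTR and VWF at 0 with siSCD_2. The groups did not overlap in any of these sums: FAP rose by 1.43 ± 0.27 (adjusted p = 0.000177) and CD68 fell by 1.25 ± 0.19 (adjusted p = 1.11e-05), and the part of other cells in the changes was not tested. Reads on the added spike-in RNAs were 3.81 to 5.08% of the siCTR libraries and 5.16 to 6.96% of the siSCD_2 libraries, with no overlap, and the abundant spike-ins stood 0.43 log2 higher with siSCD_2. All changes below are log2 differences of CPM against siCTR ± SE (n = 3 per group). They came from limma with Benjamini-Hochberg adjustment over 13364 genes and are relative to the scaled read total of each library. The deposited scaling multiplied that total, spike-in reads included, by 1.01 to 1.05 with siCTR and by 0.936 to 0.992 with siSCD_2. Centred on the spike-ins instead, 413 genes rose and 4062 fell (9.23% of calls upward against 48.4%), and the counts on that scale are given beside each gene group.

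At an adjusted p under 0.05, 2447 genes (18.3% of those tested) rose and 2612 (19.5%) fell, and 6111 had an unadjusted p under 0.05. The shares of 18.3 and 19.5% are the reference for the counts of every gene group below. The median change was 0.67 among genes that rose and -0.75 among those that fell, and 167 and 225 genes changed at least 4-fold. Of the calls, 222 were of genes with under 30 reads over the 6 libraries, and 11 were of genes with at most 3 reads in each group, for which no change is given here. The groups did not overlap for 23.6% of genes with all siSCD_2 libraries higher and for another 23.6% with all of them lower.

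**Figure D1:**
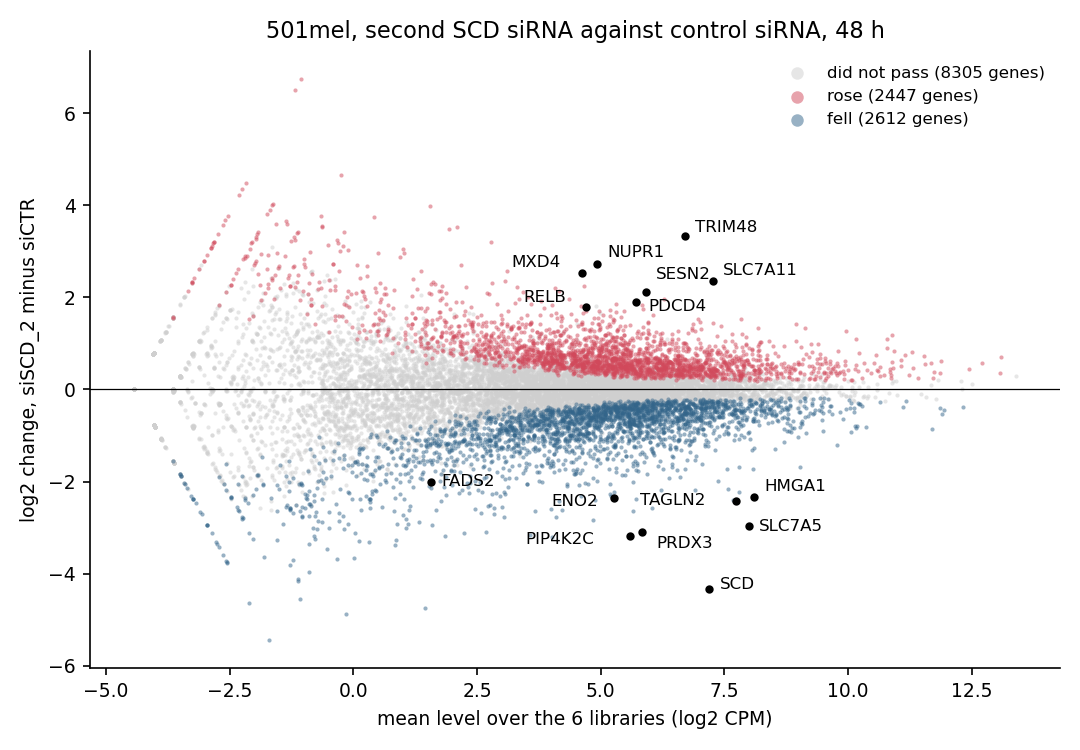
Log2 change with siSCD_2 (vertical axis) against mean level over the 6 libraries in log2 CPM (horizontal axis), 1 point per gene, with 2447 risen genes in red and 2612 fallen genes in blue. SCD lies lowest among the labelled genes, followed by PIP4K2C, PRDX3 and SLC7A5, and the lines of points at the far left are genes with a few reads.

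SCD (ENSG00000099194.5, chromosome 10, 100347124 to 100364834, plus strand) was at 9.23, 9.49 and 9.36 log2 CPM with siCTR and 5.05, 4.95 and 5.09 with siSCD_2. Every siSCD_2 library lay far under every siCTR library, and some SCD mRNA remained in each, 520 reads over the 3 libraries against 10188. The change of -4.33 corresponds to a level 20.1-fold lower. FADS2, the delta-6 desaturase that can also act on palmitate, was at 2.64, 2.52 and 2.57 log2 CPM with siCTR and 0.50, 0.81 and 0.40 with siSCD_2, from 91 reads over the siCTR and 23 over the siSCD_2 libraries. FADS2 fell by 2.0 ± 0.28 (adjusted p = 2.45e-06), with the siSCD_2 libraries all below the siCTR libraries. FADS1, the delta-5 desaturase, was at 6.23, 6.27 and 6.50 log2 CPM with siCTR and 6.92, 6.66 and 6.99 with siSCD_2 and rose by 0.52 ± 0.10 (adjusted p = 0.000151). The neighbouring genes FADS1 and FADS2 so moved in opposite directions, and FADS1 did not pass once centred on the spike-ins. FADS3, the other member of that gene cluster, fell by 0.54 ± 0.16 (adjusted p = 0.00874). The desaturases SCD5 and DEGS1, the latter acting on dihydroceramide, changed by 0.23 ± 0.19 (adjusted p = 0.369) and 0.32 ± 0.21 (adjusted p = 0.254) and did not pass.

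Among genes of fatty acid synthesis, elongation and activation, 6 of 25 measured members rose and 6 fell, beside 18.3 and 19.5% of all genes. Their median change was -0.12 against 0 over all genes, and spike-in centring gave 1 rose and 10 fell. SLC25A1, the carrier that exports citrate for fatty acid synthesis, was at 5.10, 5.08 and 4.97 log2 CPM with siCTR and 3.58, 3.25 and 3.73 with siSCD_2. It fell by 1.53 ± 0.24 (adjusted p = 1.57e-05) and its groups did not overlap. HACD3, a dehydratase of the elongation cycle, fell by 1.18 ± 0.08 (adjusted p = 1.88e-11). The enzymes that attach coenzyme A to long-chain fatty acids split: ACSL3 fell by 0.85 ± 0.09 (adjusted p = 1.62e-08) and ACSL1 fell by 0.41 ± 0.11 (adjusted p = 0.00457), while ACSL4, which favours arachidonic and other polyunsaturated acids, rose by 1.02 ± 0.10 (adjusted p = 1.41e-08). ACSL4 was at 6.0, 6.38 and 6.17 log2 CPM with siCTR and 7.18, 7.30 and 7.12 with siSCD_2, and the siSCD_2 libraries all lay above the controls. ACLY, FASN and ELOVL6, which make acetyl-CoA, build palmitate and elongate it, changed by -0.17 ± 0.10 (adjusted p = 0.178), -0.12 ± 0.10 (adjusted p = 0.38) and 0.07 ± 0.15 (adjusted p = 0.759) and did not pass.

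Among genes that put fatty acids into phospholipids, 5 of 32 measured members rose and 9 fell, beside 18.3 and 19.5% of all genes, with a median of -0.18 (1 rose and 14 fell on the spike-in scale). Of this list 3 rose and 9 fell with only the 6 libraries fitted, and the number that rose was 2 without siCTR replicate 1 or siSCD_2 replicate 1 and 3 without siCTR replicate 2. GPAM, the mitochondrial acyltransferase that starts glycerolipid synthesis, was at 5.25, 5.20 and 5.24 log2 CPM with siCTR and 3.53, 3.78 and 3.63 with siSCD_2. GPAM fell by 1.58 ± 0.17 (adjusted p = 7.61e-08), and its siSCD_2 libraries were all below the siCTR libraries. The next acyltransferase AGPAT1, the phosphatidylserine synthase PTDSS1, the choline phosphotransferase CHPT1 and the phosphatidylserine decarboxylase PISD changed by -0.90, -0.85, -0.67 and -0.60. LPIN1, the phosphatidate phosphatase that supplies diacylglycerol, went the other way. It was at 3.85, 3.91 and 3.96 log2 CPM with siCTR and 5.35, 5.18 and 5.46 with siSCD_2 and rose by 1.42 ± 0.15 (adjusted p = 2.5e-08), and the groups did not overlap.

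Of genes for lipid droplets and fatty acid oxidation, 6 of 33 measured members rose and 6 fell (median 0.00; 1 rose and 9 fell on the spike-in scale). There, 6 rose and 3 fell with only the 6 libraries fitted, and the number of falls was 2 without siSCD_2 replicate 3 and 3 without siCTR replicate 2. HADH, HADHA, HADHB and CPT2, enzymes of mitochondrial beta-oxidation and carnitine transfer, changed by 1.20, 0.64, 0.58 and 0.72, whereas the thiolase ACAA2 changed by -1.34. PPARGC1A, a coactivator of mitochondrial biogenesis under MITF in melanoma, fell by 0.61 ± 0.16 (adjusted p = 0.00302). PLIN2, the coat protein of lipid droplets, changed by -0.53 ± 0.39 (adjusted p = 0.316) and did not pass.

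Genes of cholesterol synthesis and uptake rose more often than they fell. Of 27 measured members 13 rose and 3 fell, against 18.3 and 19.5% of all genes, with a median of 0.49. With spike-in centring 2 rose and 5 fell, so the excess of rises over falls did not hold on that scale. Upward calls were 28.6% of its calls there, beside 9.23% over all genes, and its median was 0.07 beside -0.43. All 3 siSCD_2 libraries exceeded all 3 siCTR libraries for 16 of the 27 members, beside 23.6% of genes overall. HMGCS1, which makes the HMG-CoA that enters the pathway, was at 7.94, 8.38 and 8.41 log2 CPM with siCTR and 9.76, 9.64 and 9.63 with siSCD_2. It rose by 1.43 ± 0.13 (adjusted p = 4e-09), with every siSCD_2 library higher. INSIG1, the sterol-regulated retention protein of the ER, rose by 1.03 ± 0.10 (adjusted p = 7.35e-09), and SREBF2, the transcription factor of the pathway, rose by 0.77 ± 0.07 (adjusted p = 9.91e-09). Among the 3 members that fell were SCAP, the escort of SREBP proteins, at -0.59, and INSIG2 at -0.86.

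For the oxysterol receptors LXR and their targets, 3 of 12 measured members rose and 3 fell (0 rose and 3 fell on the spike-in scale). APOE, a secreted lipoprotein component, was at 5.0, 4.62 and 4.76 log2 CPM with siCTR and 5.47, 5.56 and 5.45 with siSCD_2 and rose by 0.70 ± 0.17 (adjusted p = 0.00152). The groups did not overlap for APOE, which lost its call once centred on the spike-ins. APOE had the highest change of the list. The lowest was -1.53, and 2 members fell at least 2-fold. APOC1, another apolipoprotein gene of the list, fell by 0.93 ± 0.21 (adjusted p = 0.000871), with all siSCD_2 libraries lower.

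Genes of ATF4 and the integrated stress response (ISR) rose in part. 9 of 24 measured members rose and 4 fell, beside 18.3 and 19.5% of all genes, with a median of 0.19. On the spike-in scale 4 rose and 8 fell, so the balance of the list turns with the scaling. Upward calls were 33.3% of its calls on that scale, beside 9.23% over all genes, and its median was -0.24 beside -0.43. In the ISR list 8 rose and 2 fell with only the 6 libraries fitted, and the number that fell was 2 without siCTR replicate 1. ATF4 itself was at 8.01, 8.26 and 8.29 log2 CPM with siCTR and 8.98, 8.55 and 8.75 with siSCD_2. The siSCD_2 libraries were all above the controls. ATF4 rose by 0.58 ± 0.14 (adjusted p = 0.00159), while the abundant spike-ins stood 0.43 higher, so most of its rise depends on the scaling. ATF3, a stress-induced factor of the same family, was at 1.21, 1.33 and 1.21 log2 CPM with siCTR and 3.04, 2.86 and 2.59 with siSCD_2 and rose by 1.58 ± 0.27 (adjusted p = 4.85e-05). CHAC1, which degrades glutathione, was at 3.68, 3.46 and 2.86 log2 CPM with siCTR and 5.20, 4.93 and 4.54 with siSCD_2. CHAC1 rose by 1.56 ± 0.24 (adjusted p = 1.12e-05), with no overlap of the groups. NUPR1, SESN2 and SLC7A11, a stress-induced chromatin protein, an inhibitor of mTORC1 and the cystine importer, had the largest rises among ISR and amino acid genes. NUPR1 was at 3.09, 3.87 and 3.71 log2 CPM with siCTR and 6.52, 6.10 and 6.25 with siSCD_2. SESN2 was at 4.61, 4.93 and 5.01 log2 CPM with siCTR and 7.19, 6.85 and 6.87 with siSCD_2, and SLC7A11 at 5.89, 6.26 and 6.12 log2 CPM with siCTR and 8.34, 8.47 and 8.51 with siSCD_2. In all 3 genes every siSCD_2 library stood well above every siCTR library.

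Against these, 4 members of the ISR list fell. GDF15, a secreted stress factor, was at 9.77, 9.59 and 9.52 log2 CPM with siCTR and 8.76, 8.63 and 8.66 with siSCD_2 and fell by 0.94 ± 0.08 (adjusted p = 1.53e-09); all siSCD_2 libraries were lower. PPP1R15B, the constitutive eIF2 alpha phosphatase subunit, fell by 0.57 ± 0.14 (adjusted p = 0.00262). The other two were ATF5 (-0.50) and the ER stress kinase EIF2AK3 (-0.36). DDIT3, the ISR factor CHOP, and PPP1R15A, its phosphatase target, changed by 0.35 ± 0.15 (adjusted p = 0.0658) and 0.39 ± 0.16 (adjusted p = 0.0621) and did not pass.

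Of the amino acid transporters, 5 of 20 measured members rose and 4 fell, near the 18.3 and 19.5% of all genes (2 rose and 7 fell on the spike-in scale). SLC7A5 (ENSG00000103257.8, chromosome 16, 87830023 to 87869488, minus strand), the light chain of the large neutral amino acid exchanger LAT1, was at 9.70, 9.31 and 9.43 log2 CPM with siCTR and 6.72, 6.43 and 6.36 with siSCD_2. Its mean was 7.85-fold lower, the fourth largest fall among genes whose level was not under the median. Its heavy chain partner SLC3A2 changed by -0.13 ± 0.11 (adjusted p = 0.396) and did not pass. SLC7A1, an arginine and lysine carrier, fell by 1.03 ± 0.11 (adjusted p = 8.75e-08), and the lysosomal exporter SLC36A1 fell by 0.99 ± 0.16 (adjusted p = 1.71e-05). SLC38A2, the inducible carrier of small neutral amino acids, was at 6.13, 5.96 and 5.66 log2 CPM with siCTR and 6.96, 6.86 and 7.07 with siSCD_2 and rose by 1.05 ± 0.13 (adjusted p = 4.82e-07). SLC7A8, the light chain of the related exchanger LAT2, rose by 1.0 ± 0.14 (adjusted p = 2.86e-06).

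Among enzymes of amino acid and one-carbon synthesis, 5 of 19 measured members rose and 2 fell (1 rose and 6 fell on the spike-in scale, and 3 rose and 3 fell with only the 6 libraries fitted). ASNS, asparagine synthetase, was at 4.06, 4.60 and 4.32 log2 CPM with siCTR and 5.76, 5.61 and 5.53 with siSCD_2. It rose by 1.30 ± 0.16 (adjusted p = 3.77e-07) without overlap of the groups. PYCR1, which makes proline, changed by -1.11. PHGDH, the entry to serine synthesis, rose by 0.44 ± 0.11 (adjusted p = 0.00246), and CTH, which makes cysteine, rose by 0.57 ± 0.15 (adjusted p = 0.00302); neither passed when centred on the spike-ins. Of the cytosolic tRNA synthetases, 5 of 20 measured members rose and 4 fell (0 rose and 9 fell on the spike-in scale, and the number of rises was 3 without siCTR replicate 1 or siSCD_2 replicate 1), with CARS at 0.77 and FARSA at -0.59 at the ends.

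The promoters of CHAC1 and ASNS are shown because both hold the element bound by ATF4 with C/EBP proteins, in capitals. They are RefSeq windows of 300 bases on GRCh38.p14, from 250 bases before to 50 after the gene start, written 5' to 3' on the strand of the gene. CHAC1 lies at chr15:40953221-40953520, plus strand, and ASNS at chr7:97872359-97872658, minus strand.
CHAC1: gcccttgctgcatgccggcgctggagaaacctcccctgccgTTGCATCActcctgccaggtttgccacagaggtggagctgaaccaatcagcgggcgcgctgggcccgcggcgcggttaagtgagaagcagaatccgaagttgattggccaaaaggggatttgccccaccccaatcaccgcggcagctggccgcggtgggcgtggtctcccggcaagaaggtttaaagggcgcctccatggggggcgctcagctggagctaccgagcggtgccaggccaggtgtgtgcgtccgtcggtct
ASNS: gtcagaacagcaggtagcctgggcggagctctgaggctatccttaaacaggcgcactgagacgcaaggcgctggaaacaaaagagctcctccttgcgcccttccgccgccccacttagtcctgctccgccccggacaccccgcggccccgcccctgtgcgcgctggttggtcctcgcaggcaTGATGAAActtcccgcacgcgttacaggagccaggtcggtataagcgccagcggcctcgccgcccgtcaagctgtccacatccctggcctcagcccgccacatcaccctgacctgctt
The search was for TGATGNAA on both strands. It was found in 180 of 10515 promoters of tested genes (1.71%), in 2.07% of those of genes that rose, 1.51% of genes that fell and 3.18% of the 503 genes that rose at least 2-fold. The ISR list had 3 of 21 (ATF3, CHAC1 and PPP1R15B), amino acid synthesis 3 of 10 (ASNS, MTHFD1L and GOT1) and the tRNA synthetases 5 of 12 (AARS, CARS, IARS, NARS and TARS). Members with the element did not share a direction: CHAC1, ATF3 and ASNS rose, PPP1R15B fell, and TARS changed by -0.06 ± 0.09 (adjusted p = 0.622). The match is of letters only and says nothing of binding.

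In the ER folding list, targets of IRE1-XBP1 and ATF6, 7 of 26 measured members rose and 11 fell, with a median of -0.29 (2 rose and 15 fell on the spike-in scale). PDIA3 (ENSG00000167004.12, chromosome 15, 43746392 to 43773279, plus strand), a disulphide isomerase for glycoproteins, was at 7.54, 7.17 and 7.19 log2 CPM with siCTR and 4.90, 5.31 and 5.17 with siSCD_2. It fell by 2.17 ± 0.10 (adjusted p = 2.16e-14), and every siSCD_2 library lay below the controls. SDF2L1, a partner of the chaperone BiP, fell by 1.32 ± 0.10 (adjusted p = 1.35e-10), the calcium-binding chaperone CALR fell by 0.78 ± 0.08 (adjusted p = 2.24e-08) and the secreted protein MANF fell by 0.55 ± 0.08 (adjusted p = 9.25e-06). BiP itself, HSPA5, fell by 0.26 ± 0.09 (adjusted p = 0.023). Genes of ER-associated degradation were among the 7 that rose: DNAJB9, a cochaperone that restrains IRE1, was at 4.65, 4.88 and 4.03 log2 CPM with siCTR and 6.04, 5.90 and 5.20 with siSCD_2 and rose by 1.19 ± 0.18 (adjusted p = 1.21e-05). HERPUD1, which assembles the degradation complex, was at 6.15, 6.22 and 6.12 log2 CPM with siCTR and 7.26, 7.23 and 7.03 with siSCD_2. HERPUD1 rose by 1.01 ± 0.08 (adjusted p = 4.4e-10) with no overlap of the groups, and XBP1 changed by 0.05 ± 0.08 (adjusted p = 0.648).

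Cytosolic and mitochondrial chaperones fell: 2 of 28 measured members rose and 15 fell, beside 18.3 and 19.5% of all genes. Their median was -0.33, and 0 rose and 19 fell on the spike-in scale. TCP1, a subunit of the chaperonin that folds actin and tubulin, was at 8.61, 8.63 and 8.65 log2 CPM with siCTR and 6.98, 6.85 and 7.0 with siSCD_2. TCP1 fell by 1.69 ± 0.07 (adjusted p = 8.59e-16), while another subunit, CCT2, fell by 0.45 ± 0.08 (adjusted p = 5.07e-05). The mitochondrial chaperonin HSPD1 fell by 0.51 ± 0.07 (adjusted p = 1.36e-06) and the abundant HSP90AB1 fell by 0.45 ± 0.09 (adjusted p = 0.000167). The 2 members that rose were DNAJB1, an HSP70 cochaperone, at 0.37 and the regulator HSF1 at 0.42, and both turned slightly negative on the spike-in scale. Of the chaperones 1 rose and 14 fell with only the 6 libraries fitted. The DNAJB1 call was lost without siCTR replicate 1 (0.24) or siSCD_2 replicate 1 (0.30), which left 1 rise. For the proteasome, 2 of 34 measured members rose and 17 fell (median -0.22; 0 rose and 23 fell on the spike-in scale). PSMB2 and PSMB5 of the core and the ATPase PSMC6 changed by -0.82, -0.49 and -0.78. The 2 that rose were the lid subunit PSMD7 (0.69) and NFE2L1 (0.59), the factor that drives proteasome genes.

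**Figure D2:**
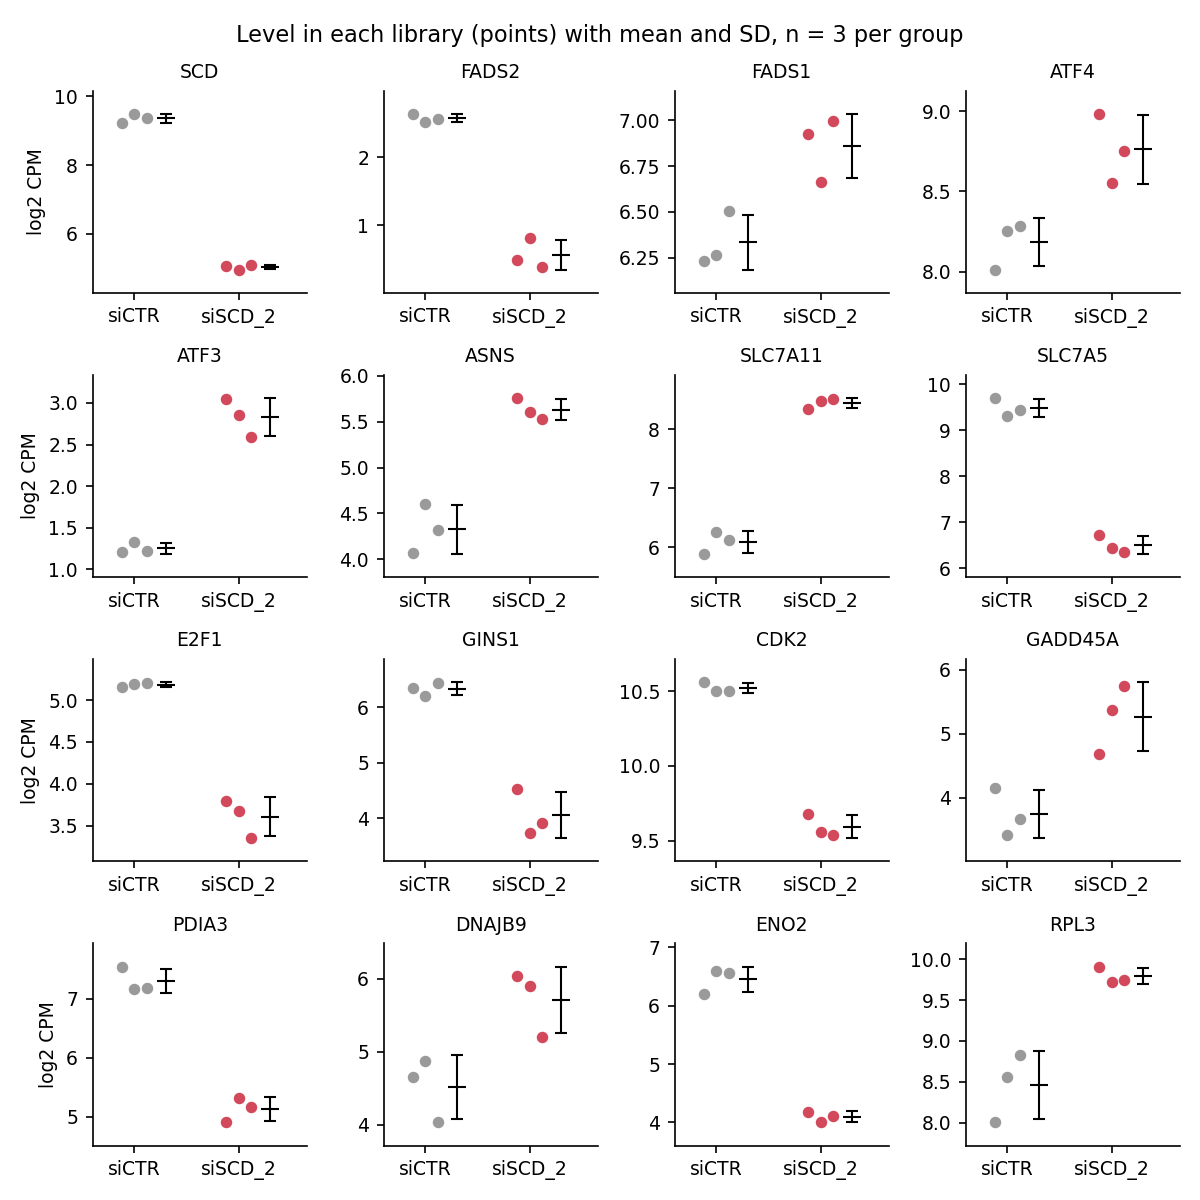
Level in log2 CPM (vertical axes, each with its own range) of 16 genes in the 3 siCTR (grey) and 3 siSCD_2 (red) libraries, with mean and SD in black. In each panel the siSCD_2 points lie entirely on one side of the siCTR points.

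Genes of DNA replication and nucleotide synthesis fell and none rose: 0 of 39 measured members rose and 26 fell, with a median of -0.48, and 0 rose and 32 fell on the spike-in scale (the number of rises was 1 without siCTR replicate 3). GINS1 (ENSG00000101003.9, chromosome 20, 25407727 to 25452628, plus strand), a subunit of the replicative helicase, was at 6.35, 6.21 and 6.44 log2 CPM with siCTR and 4.53, 3.74 and 3.92 with siSCD_2. It fell by 2.27 ± 0.14 (adjusted p = 2.45e-12), the largest fall of the list. MCM10, which activates that helicase, fell by 1.0 ± 0.13 (adjusted p = 5.76e-07), and the helicase subunits MCM7, MCM4 and MCM2 changed by -0.79, -0.77 and -0.68. TYMS, thymidylate synthase, fell by 0.86 ± 0.10 (adjusted p = 1.11e-07), and RRM2, the small subunit of ribonucleotide reductase, fell by 0.64 ± 0.07 (adjusted p = 1.68e-07). PCNA, the sliding clamp, was at 7.58, 7.28 and 7.24 log2 CPM with siCTR and 6.33, 6.76 and 6.98 with siSCD_2. The siSCD_2 libraries were all below the siCTR libraries for PCNA, as for 30 of the 39 genes, beside 23.6% of all genes.

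Among G1 cyclins, their kinases and E2F factors, 5 of 25 measured members rose and 12 fell (median -0.30; 0 rose and 13 fell on the spike-in scale). How many rose varied with the libraries fitted: 3 rose and 9 fell with only the 6 libraries fitted, and the number of rises was 1 without siSCD_2 replicate 2, 2 without siCTR replicate 3 and 3 without siCTR replicate 1 or siCTR replicate 2 or siSCD_2 replicate 3. E2F1, the activator of S phase genes, was at 5.16, 5.19 and 5.21 log2 CPM with siCTR and 3.80, 3.68 and 3.35 with siSCD_2. E2F1 fell by 1.58 ± 0.13 (adjusted p = 6.44e-10). CDK2, the kinase of S phase entry, was at 10.56, 10.50 and 10.50 log2 CPM with siCTR and 9.68, 9.56 and 9.54 with siSCD_2 and fell by 0.92 ± 0.12 (adjusted p = 8.39e-07). The 2 kinases of the D cyclins and CCND3 also fell, with CDK6 at -0.80, CDK4 at -0.40 and CCND3 at -0.74. CCND1, cyclin D1, fell by 0.54 ± 0.18 (adjusted p = 0.0164), a call that was lost without siCTR replicate 3 (-0.40) or without siSCD_2 replicate 2 (-0.47) or 3 (-0.52). The inhibitors CDKN2C and CDKN1C, which block CDK4 or CDK2 complexes, changed by 0.75 and 0.93. CDKN1A, the CDK inhibitor p21, had 3 reads with siCTR and 0 with siSCD_2 over the 3 libraries of each group, too few for a fold. CDKN2B and CDKN1B changed by -0.25 ± 0.19 (adjusted p = 0.327) and -0.07 ± 0.09 (adjusted p = 0.573).

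For mitosis and the kinetochore, 3 of 36 measured members rose and 10 fell (median -0.14; 0 rose and 20 fell on the spike-in scale). Here 1 rose and 10 fell with only the 6 libraries fitted, and the number of rises was 1 without siSCD_2 replicate 1 or siSCD_2 replicate 2. BIRC5, or survivin, was at 7.66, 7.56 and 7.61 log2 CPM with siCTR and 6.68, 6.53 and 6.65 with siSCD_2. It fell by 0.99 ± 0.08 (adjusted p = 3.36e-10); the midzone protein PRC1 fell by 0.92 ± 0.08 (adjusted p = 5.33e-10) and the kinase AURKB fell by 0.72 ± 0.10 (adjusted p = 2.71e-06). MKI67, TOP2A and PLK1, general markers of cycling cells, changed by 0.26 ± 0.18 (adjusted p = 0.264), -0.07 ± 0.07 (adjusted p = 0.49) and -0.16 ± 0.12 (adjusted p = 0.319) and did not pass. In bulk RNA, fewer cells in a phase and less RNA per cell cannot be told apart.

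The promoters of E2F1, GINS1 and MCM2 show the E2F element in genes that fell, from the same RefSeq windows. The capitals mark TTTNGCGC in either orientation, which overlap in MCM2. E2F1 lies at chr20:33686336-33686635, minus strand, GINS1 at chr20:25407423-25407722, plus strand and MCM2 at chr3:127598161-127598460, plus strand.
E2F1: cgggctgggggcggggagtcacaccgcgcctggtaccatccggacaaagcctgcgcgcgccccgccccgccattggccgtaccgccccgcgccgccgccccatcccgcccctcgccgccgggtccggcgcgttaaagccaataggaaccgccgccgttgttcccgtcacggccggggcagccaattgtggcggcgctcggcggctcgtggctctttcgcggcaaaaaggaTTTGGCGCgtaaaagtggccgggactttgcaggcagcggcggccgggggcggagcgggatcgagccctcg
GINS1: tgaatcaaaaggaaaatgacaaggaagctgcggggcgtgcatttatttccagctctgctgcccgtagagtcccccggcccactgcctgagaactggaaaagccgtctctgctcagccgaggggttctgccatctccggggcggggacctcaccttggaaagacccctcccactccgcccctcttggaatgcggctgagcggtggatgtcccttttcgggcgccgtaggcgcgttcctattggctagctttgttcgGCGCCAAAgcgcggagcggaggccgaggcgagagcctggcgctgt
MCM2: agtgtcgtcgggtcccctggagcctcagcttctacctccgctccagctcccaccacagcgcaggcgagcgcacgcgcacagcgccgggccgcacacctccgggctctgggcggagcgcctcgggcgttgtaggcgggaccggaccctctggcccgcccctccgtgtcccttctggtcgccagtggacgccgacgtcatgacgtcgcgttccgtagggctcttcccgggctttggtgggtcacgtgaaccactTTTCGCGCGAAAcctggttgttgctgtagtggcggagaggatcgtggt
TTTNGCGC, sought on both strands, was in 313 of 10515 promoters (2.98%), in 3.55% of those of genes that fell and 2.47% of those of genes that rose. For changes of at least 2-fold, it was in 2.14% of the 653 genes that fell and 2.19% of the 503 that rose, both under the share of all promoters. It was in 13 of 33 promoters of the replication list (39.4%), 4 of 19 of the G1 list (21.1%) and 2 of 29 of the mitosis list (6.9%). Replication genes with the element included MCM3 and RFC1, which changed by 0.00 ± 0.20 (adjusted p = 1) and -0.05 ± 0.13 (adjusted p = 0.797) and did not pass.

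Genes of growth arrest and cell death were mixed: 12 of 29 measured members rose and 6 fell, beside 18.3 and 19.5% of all genes (4 rose and 9 fell on the spike-in scale). GADD45A, a stress-induced growth arrest gene, was at 4.15, 3.41 and 3.67 log2 CPM with siCTR and 4.68, 5.37 and 5.74 with siSCD_2. It rose by 1.52 ± 0.26 (adjusted p = 4.72e-05), with the siSCD_2 libraries all above the controls. BBC3, the pro-apoptotic protein PUMA, was at 4.61, 4.97 and 4.49 log2 CPM with siCTR and 6.03, 5.95 and 5.89 with siSCD_2 and rose by 1.27 ± 0.17 (adjusted p = 9.91e-07). The survival factor MCL1 rose by 0.82 ± 0.08 (adjusted p = 2.3e-08) and the RNA-binding protein ZMAT3 rose by 0.80 ± 0.12 (adjusted p = 1.13e-05). MDM2, a ubiquitin ligase, was at 5.91, 5.86 and 5.88 log2 CPM with siCTR and 4.76, 4.65 and 4.51 with siSCD_2. MDM2 fell by 1.24 ± 0.11 (adjusted p = 1.17e-09), and PHLDA3, which holds back AKT signalling, fell by 0.98 ± 0.13 (adjusted p = 1.59e-06).

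Genes of MITF, the lineage factors and pigmentation did not move together. 8 of 30 measured members rose and 6 fell, beside 18.3 and 19.5% of all genes, with a median of 0.07 (1 rose and 8 fell on the spike-in scale). MITF was at 8.80, 8.62 and 8.89 log2 CPM with siCTR and 8.31, 8.35 and 8.59 with siSCD_2. All 3 siSCD_2 libraries were lower, and the call at -0.35 was lost when only the 6 libraries were fitted (adjusted p = 0.0509). SOX10, the neural crest factor upstream of MITF, was at 6.99, 6.84 and 6.66 log2 CPM with siCTR and 6.08, 6.05 and 6.05 with siSCD_2 and fell by 0.77 ± 0.10 (adjusted p = 4.73e-07). The pigment enzymes split: TYRP1 and DCT changed by -0.66 and -0.58, and TYR, tyrosinase itself, was at 8.52, 8.32 and 8.28 log2 CPM with siCTR and 8.96, 8.98 and 8.85 with siSCD_2 and rose by 0.56 ± 0.09 (adjusted p = 2.33e-05), although not on the spike-in scale. MYO5A, the motor that carries melanosomes, rose by 1.12 ± 0.13 (adjusted p = 2.34e-07), while the endothelin receptor EDNRB and the factor TFAP2A changed by 0.53 and 0.46. PMEL and MLANA, the most used antigens of this lineage, changed by -0.07 ± 0.08 (adjusted p = 0.554) and -0.26 ± 0.10 (adjusted p = 0.0391); the former did not pass.

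Of the dedifferentiated and invasive genes, 4 of 28 measured members rose and 3 fell (median -0.34; 0 rose and 10 fell on the spike-in scale). These counts varied too, as 1 rose and 4 fell with only the 6 libraries fitted and the number of falls was 5 without siSCD_2 replicate 2. AXL, the receptor kinase of the invasive state, had 14 reads with siCTR and 10 with siSCD_2 and changed by -0.09 ± 1.17 (adjusted p = 0.973). CYR61, a matricellular target of YAP, was at 7.52, 7.78 and 7.35 log2 CPM with siCTR and 5.33, 5.84 and 5.77 with siSCD_2. It fell by 1.90 ± 0.18 (adjusted p = 7.31e-09), and CTGF of the same family fell by 0.90 ± 0.23 (adjusted p = 0.00257); for both, the siSCD_2 libraries were all lower. The epithelial-mesenchymal factors ZEB2, SNAI2 and TWIST1 changed by 0.58, 0.59 and 0.61, and all 3 calls were lost on the spike-in scale. TWIST1 also lost its call without siCTR replicate 2 or 3 (0.56 and 0.42) or siSCD_2 replicate 2 or 3 (0.59 and 0.51). Across the YAP-TEAD list, 7 of 23 measured members rose and 6 fell (1 rose and 9 fell on the spike-in scale). WWTR1, the coactivator TAZ, was at 7.18, 7.09 and 7.11 log2 CPM with siCTR and 5.45, 5.28 and 5.48 with siSCD_2 and fell by 1.72 ± 0.09 (adjusted p = 3.73e-14), while YAP1 rose by 0.60 ± 0.13 (adjusted p = 0.000518) and the DNA-binding partner TEAD1 rose by 0.90 ± 0.12 (adjusted p = 1.22e-06).

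Of immediate and MAPK-induced genes, 4 of 24 measured members rose and 10 fell (median -0.38; 2 rose and 12 fell on the spike-in scale). EGR1, an immediate early factor, was at 5.06, 5.16 and 5.11 log2 CPM with siCTR and 6.36, 6.51 and 6.30 with siSCD_2 and rose by 1.28 ± 0.18 (adjusted p = 4.04e-06). ETV5 and SPRY2, a target and an inhibitor of the pathway, changed by 0.98 and 0.97. ETV4, close kin of ETV5, fell by 1.04 ± 0.12 (adjusted p = 1.07e-07), and the early response genes IER3 and PHLDA1 changed by -0.82 and -0.68.

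NF-kB and inflammatory genes rose more often than they fell: 8 of 23 measured members rose and 2 fell, beside 18.3 and 19.5% of all genes. Their median was 0.42 (4 rose and 3 fell on the spike-in scale, and 7 rose and 1 fell with only the 6 libraries fitted). RELB, the subunit of the alternative pathway, was at 3.70, 3.75 and 3.96 log2 CPM with siCTR and 5.94, 5.40 and 5.48 with siSCD_2. RELB rose by 1.80 ± 0.20 (adjusted p = 6.63e-08) and NFKBIA, the inhibitor that NF-kB itself induces, was at 5.07, 5.18 and 5.27 log2 CPM with siCTR and 6.30, 6.38 and 6.25 with siSCD_2 and rose by 1.14 ± 0.09 (adjusted p = 4.71e-10). For both genes the siSCD_2 libraries were all above the controls. The chemokine CXCL8 was at 3.53, 3.91 and 3.03 log2 CPM with siCTR and 4.45, 5.01 and 4.85 with siSCD_2 and rose by 1.28 ± 0.33 (adjusted p = 0.00322). The chemokines CXCL2 and CCL20 also passed, but from few reads, with CXCL2 at 6 with siCTR and 38 with siSCD_2 and CCL20 at 2 with siCTR and 25 with siSCD_2 over the 3 libraries of each group. NFKB1 and BCL3, a precursor subunit and a nuclear cofactor, changed by -0.42 and -1.05; the NFKB1 call was lost without siCTR replicate 1 (-0.31) or siSCD_2 replicate 1 or 2 (-0.38 and -0.40), which left 1 fall in the list.

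In the interferon list, 4 of 33 measured members rose and 10 fell (median -0.31; 0 rose and 11 fell on the spike-in scale). STAT2, which carries type I interferon signals, was at 5.81, 5.68 and 5.80 log2 CPM with siCTR and 4.91, 4.54 and 4.80 with siSCD_2 and fell by 1.02 ± 0.13 (adjusted p = 1.27e-06). ISG20, IFITM3 and HLA-B, an exonuclease, an entry restriction factor and an antigen-presenting chain, changed by -0.94, -0.65 and -0.76. B2M, the shared chain of class I molecules, changed by 0.57 and did not pass on the spike-in scale.

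Glycolysis genes fell: 2 of 28 measured members rose and 14 fell, beside 18.3 and 19.5% of all genes. Their median was -0.32, and 0 rose and 17 fell on the spike-in scale. ENO2, an enolase, was at 6.20, 6.59 and 6.57 log2 CPM with siCTR and 4.19, 4.0 and 4.11 with siSCD_2. ENO2 fell by 2.35 ± 0.15 (adjusted p = 3.42e-12), a 5.1-fold lower mean. LDHA, which makes lactate, was at 7.81, 8.07 and 8.07 log2 CPM with siCTR and 6.71, 6.75 and 6.52 with siSCD_2 and fell by 1.32 ± 0.12 (adjusted p = 4.24e-09). The glucose carriers SLC2A1 and SLC2A3, the phosphofructokinase PFKP and the pyruvate kinase PKM changed by -1.18, -1.13, -0.85 and -0.62. SLC16A1, a lactate carrier, and LDHB were the 2 that rose, at 0.72 and 0.24, and LDHB turned negative on the spike-in scale. In the hypoxia list, 5 of 25 measured members rose and 10 fell (median -0.37; 0 rose and 13 fell on the spike-in scale), with the oxygen-regulated factor HIF1A at -0.60 and its targets AK4, BNIP3 and P4HA1 at -1.67, -1.23 and -0.90. KDM4B and KDM3A, oxygen-dependent histone demethylases, and HIF1AN, which inactivates HIF1A, changed by 1.05, 0.80 and 0.59.

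Of nuclear genes of oxidative phosphorylation, 13 of 39 measured members rose and 4 fell, with a median of 0.07, but 0 rose and 11 fell on the spike-in scale. The count of rises depended on the libraries used: 5 rose and 3 fell with only the 6 libraries fitted, and the number of rises was 7 without siCTR replicate 1 or siSCD_2 replicate 1. The ATP synthase subunits ATP5A1 and ATP5G1 moved apart, at 0.84 and -0.76. The mitochondrial ribosome, which translates the mitochondrial genome, fell instead: 3 of 42 measured members rose and 22 fell (median -0.27; 0 rose and 31 fell). MRPL37 was at 7.51, 7.52 and 7.53 log2 CPM with siCTR and 6.29, 5.74 and 5.93 with siSCD_2 and fell by 1.53 ± 0.11 (adjusted p = 4.8e-11). MRPS18A and MRPL17 changed by -0.96 and -0.89, and the 3 that rose were MRPS27, MRPL18 and MRPS25 at 0.74, 0.41 and 0.24, of which MRPS25 turned negative on the spike-in scale and lost its call without siCTR replicate 1 (0.19) or siSCD_2 replicate 1 (0.22). The number of rises of that list was 1 without siSCD_2 replicate 1.

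Of genes of NRF2 and glutathione, 3 of 25 measured members rose and 8 fell (median 0.00; 0 rose and 8 fell on the spike-in scale). PGD and TALDO1 of the pentose phosphate pathway changed by -1.25 and -0.88, the glutathione reductase GSR by -0.59 and KEAP1, the inhibitor of NRF2, by -0.71. HMOX1 and NQO1, standard NRF2 targets, changed by 0.09 ± 0.15 (adjusted p = 0.687) and 0.06 ± 0.07 (adjusted p = 0.536) and did not pass. In the ferroptosis and iron list, 0 of 16 measured members rose and 3 fell (0 rose and 9 fell on the spike-in scale, 0 rose and 5 fell with only the 6 libraries fitted, and the number of rises was 1 without siCTR replicate 1 or siSCD_2 replicate 1); the transferrin receptor TFRC was at -0.44, the ferrireductase STEAP3 at -1.26 and the ubiquinone reductase AIFM2 at -0.32. GPX4, which reduces lipid peroxides, changed by 0.27 ± 0.26 (adjusted p = 0.454).

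Cytosolic ribosomal protein genes rose together relative to the library: 50 of 58 measured members rose and 0 fell, with a median of 0.46 and a range of -0.18 to 1.33. Centred on the spike-ins, 5 rose and 2 fell. Upward calls were 71.4% of the list's calls there, beside 9.23% over all genes, and its median was 0.03 beside -0.43. In the main scaling, the number of falls was 1 without siSCD_2 replicate 1. RPL3 was at 8.01, 8.56 and 8.82 log2 CPM with siCTR and 9.91, 9.72 and 9.75 with siSCD_2. RPL3 rose by 1.33 ± 0.19 (adjusted p = 3.72e-06), and RPL13, RPS3A, RPL37, RPL7A, RPS18 and RPL30 changed by 1.10, 0.87, 0.83, 0.74, 0.73 and 0.54. The siSCD_2 libraries were all higher for 50 of the 58 genes, against 23.6% of genes overall. These genes share sequence with many processed pseudogenes, and how such reads were assigned is not given in the sources used here.

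Genes that build ribosomes went the opposite way: of the MYC and ribosome biogenesis list, 3 of 35 measured members rose and 16 fell (median -0.30; 1 rose and 25 fell on the spike-in scale). The number of rises of this list was 1 without siCTR replicate 1 or siSCD_2 replicate 2. DDX21, a nucleolar helicase, was at 9.47, 9.57 and 9.52 log2 CPM with siCTR and 8.41, 8.51 and 8.52 with siSCD_2 and fell by 1.04 ± 0.08 (adjusted p = 3.36e-10). The snoRNP protein RRP9, the chaperone NOLC1 and the processome factor NOP14 changed by -0.80, -0.54 and -0.50. MXD4, a repressor that competes with MYC for MAX, was at 3.79, 3.0 and 3.28 log2 CPM with siCTR and 5.96, 5.79 and 5.89 with siSCD_2. MXD4 rose by 2.52 ± 0.22 (adjusted p = 1.02e-09), the third largest rise among named genes whose level was not under the median, while MYC changed by -0.32 ± 0.21 (adjusted p = 0.257).

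Among regulators of mTORC1 and the PI3-kinase axis, 9 of 33 measured members rose and 8 fell (2 rose and 10 fell on the spike-in scale). NPRL3 and NPRL2, of the complex that switches mTORC1 off without amino acids, changed by -1.26 and -0.62, and the kinase AKT1 by -0.74. TSC1, another brake on mTORC1, was at 3.66, 3.65 and 3.49 log2 CPM with siCTR and 4.64, 4.79 and 4.90 with siSCD_2 and rose by 1.18 ± 0.17 (adjusted p = 3.18e-06), and the insulin receptor INSR rose by 1.17 ± 0.23 (adjusted p = 0.000217). Of lysosome and autophagy genes, 12 of 37 measured members rose and 7 fell (1 rose and 12 fell on the spike-in scale, and 9 rose and 3 fell with only the 6 libraries fitted). ATP6V1A, the catalytic subunit of the proton pump, was at 5.64, 5.62 and 5.73 log2 CPM with siCTR and 6.77, 6.89 and 6.71 with siSCD_2 and rose by 1.12 ± 0.10 (adjusted p = 3.87e-09). LAMP2, a lysosomal membrane protein, rose by 0.91 ± 0.08 (adjusted p = 1.47e-09), whereas the autophagosome protein MAP1LC3B and the sialidase NEU1 changed by -0.68 and -0.74.

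Of integrins, collagens and matrix genes, 9 of 30 measured members rose and 3 fell (median 0.23; 2 rose and 5 fell on the spike-in scale). ITGB1, the shared beta chain of most integrins, was at 3.37, 3.19 and 3.81 log2 CPM with siCTR and 5.0, 5.04 and 4.77 with siSCD_2 and rose by 1.48 ± 0.17 (adjusted p = 1.24e-07). LAMB2, a laminin chain, rose by 1.37 ± 0.22 (adjusted p = 2.59e-05), and ITGB5 and ITGB8, beta chains that pair with the alpha v chain, changed by -0.67 and -0.77. Of ID proteins and SMAD inhibitors, 4 of 13 measured members rose and 2 fell (2 rose and 2 fell on the spike-in scale, 4 rose and 1 fell with only the 6 libraries fitted, and the number of falls was 1 without siCTR replicate 1 or siCTR replicate 2 or siSCD_2 replicate 1 or siSCD_2 replicate 2). BMPR2, a receptor for bone morphogenetic proteins, and SMAD6, an inhibitor of that signal, changed by 1.47 and 1.43.

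**Figure D3:**
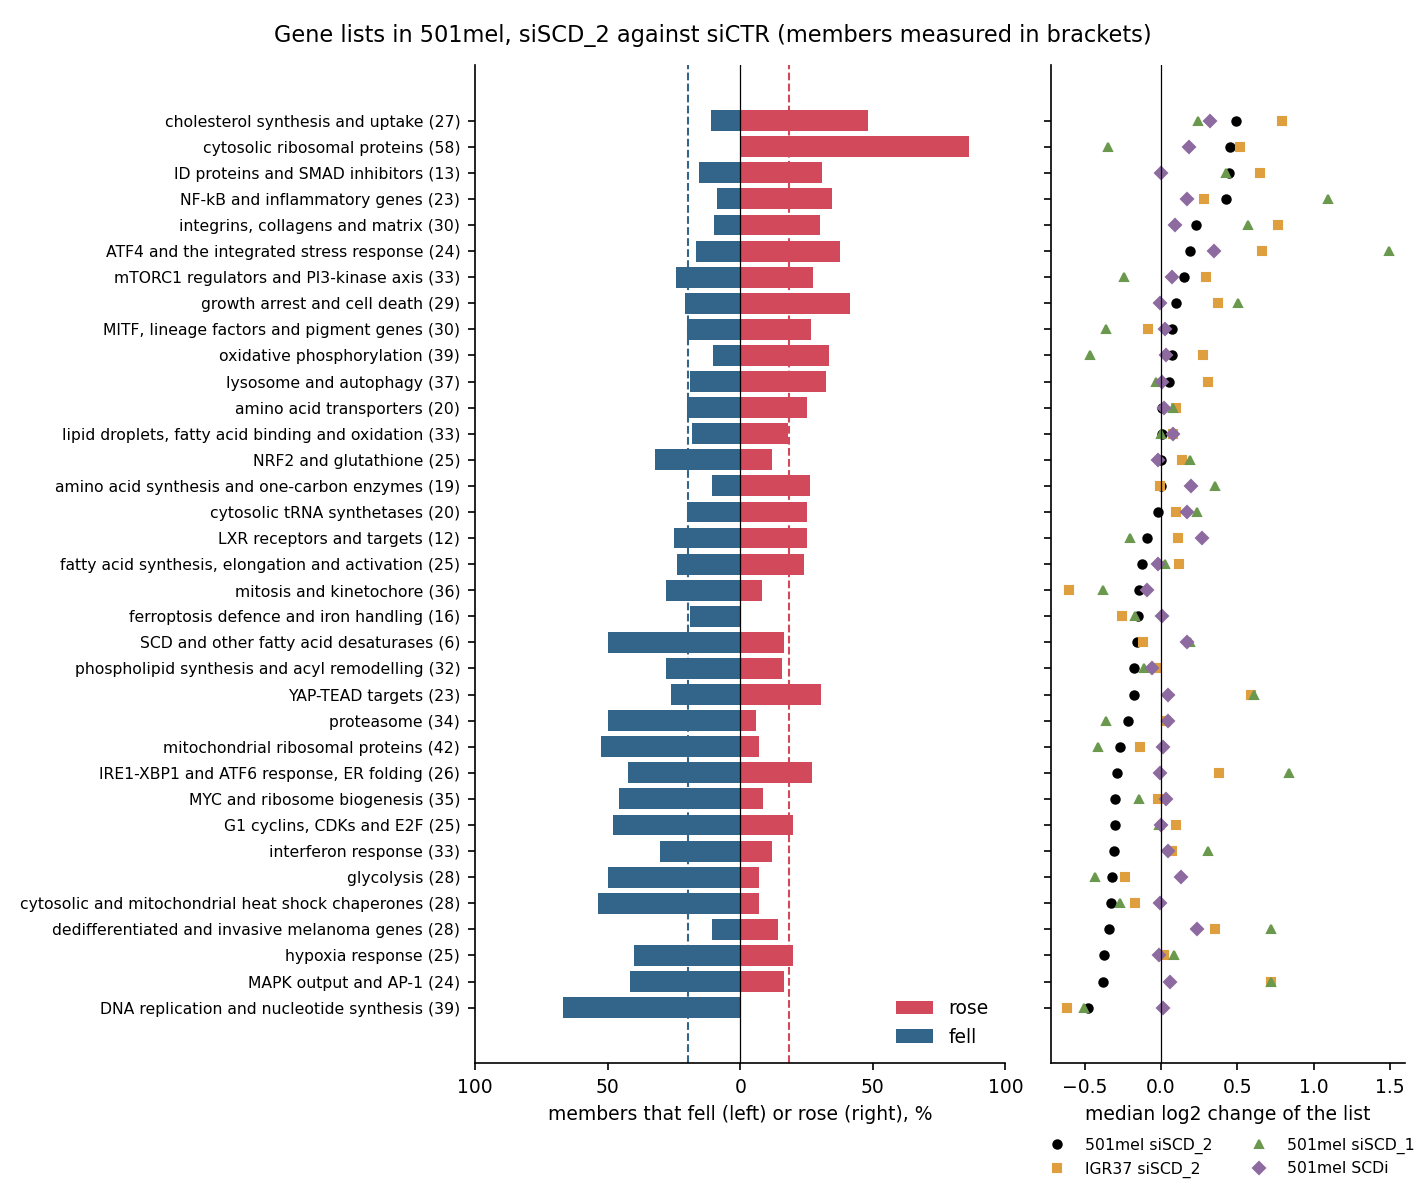
Left, share of the measured members of each gene list that fell (blue) or rose (red) with siSCD_2 in 501mel, with dashed lines at the shares over all genes (19.5 and 18.3%). Right, median log2 change of each list in 4 experiments; cytosolic ribosomal proteins rose most often and DNA replication genes fell most often in 501mel with siSCD_2.

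Some of the largest changes at or above the median level lay outside these pathways. PIP4K2C (ENSG00000166908.17, chromosome 12, 57591174 to 57603418, plus strand), a phosphatidylinositol phosphate kinase, was at 7.35, 7.30 and 6.88 log2 CPM with siCTR and 3.95, 3.95 and 4.08 with siSCD_2. PIP4K2C fell by 3.19 ± 0.14 (adjusted p = 4.15e-15), 9.1-fold lower. PRDX3 (ENSG00000165672.6, chromosome 10, 119167703 to 119178833, minus strand), the mitochondrial peroxiredoxin, was at 7.58, 7.40 and 7.17 log2 CPM with siCTR and 3.99, 4.56 and 4.33 with siSCD_2. It fell by 3.09 ± 0.14 (adjusted p = 1.19e-14), 8.5-fold lower, and for both genes the groups did not overlap. HMGA1, an architectural chromatin protein, was at 9.39, 9.24 and 9.16 log2 CPM with siCTR and 7.10, 6.77 and 6.91 with siSCD_2 and fell by 2.33 ± 0.15 (adjusted p = 7.7e-12). TAGLN2, an actin-binding protein, fell by 2.41 ± 0.12 (adjusted p = 3.65e-14), and the surface receptor SIRPA, the adhesion molecule CEACAM1 and the ribosome assembly factor GRWD1 changed by -2.65, -2.61 and -2.58.

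TRIM48, a tripartite motif gene with close copies in the genome, was at 5.25, 4.89 and 4.97 log2 CPM with siCTR and 8.40, 8.49 and 8.23 with siSCD_2. TRIM48 rose by 3.34 ± 0.64 (adjusted p = 0.000166), the largest such rise; reads may be shared with its copies. PDCD4, a translation inhibitor, was at 4.80, 4.71 and 4.78 log2 CPM with siCTR and 6.43, 6.62 and 6.92 with siSCD_2 and rose by 1.89 ± 0.16 (adjusted p = 1.13e-09). PNRC1, a nuclear receptor coregulator, TRAPPC6B, a subunit of a vesicle tethering complex, the microtubule protein MAP2 and the calcium-binding melanocytic protein S100B changed by 2.25, 2.14, 1.97 and 1.83.

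The same siRNA was used in IGR37, and the difference of its effect (IGR37 minus 501mel) passed for 21.1% of genes, 1553 higher in IGR37 and 1266 lower (538 and 238 on the spike-in scale). Among genes of cell cycle entry, CCND1 changed by -0.54 in 501mel and 1.99 in IGR37, a difference of 2.53 ± 0.25 (adjusted p = 5.67e-08). CDK6 changed by -0.80 and 1.18 (difference 1.99 ± 0.15 (adjusted p = 8.11e-10)), and CDC25A, a phosphatase that activates CDK2, by -0.61 and 0.71. The glucose carrier SLC2A3 changed by -1.13 and 2.12 (difference 3.25 ± 0.15 (adjusted p = 9.54e-14)), and SLC2A1 by -1.18 and 0.76. Of stress genes, GDF15 changed by -0.94 and 1.0 (difference 1.94 ± 0.12 (adjusted p = 2.03e-11)) and DDIT3 by 0.35 and 2.16 (difference 1.81 ± 0.21 (adjusted p = 9.74e-07)). APOE went the other way, at 0.70 in 501mel and -1.18 in IGR37 (difference -1.88 ± 0.23 (adjusted p = 2.37e-06)).

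By group, 16 of 26 ER folding genes were higher in IGR37 by this test and 0 lower; in that line 11 rose and 3 fell, against 7 and 11 in 501mel. For the MITF list the difference was higher for 4 and lower for 11 of 30 genes, with MITF at -0.35 and -1.13 (difference -0.78 ± 0.11 (adjusted p = 1.88e-05)), DCT at -0.58 and -1.59 and PPARGC1A at -0.61 and -2.55. Of 39 DNA replication genes, 3 were higher and 7 lower. GINS1 changed by -2.27 and -2.29, a difference of -0.02 ± 0.20 (adjusted p = 0.966). Among the 15 largest falls of 501mel, PRDX3 was at -3.09 and -1.79 in IGR37 (difference 1.29 ± 0.20 (adjusted p = 4.54e-05)), PIP4K2C at -3.19 and -1.73 (difference 1.45 ± 0.20 (adjusted p = 7.93e-06)) and SLC7A5 at -2.97 and -1.89 (difference 1.08 ± 0.19 (adjusted p = 0.000251)). The 15 were picked by their falls in the same 501mel libraries that the difference uses. That choice favours weaker changes in IGR37, and the p-values do not allow for it. For HMGA1, at -2.33 and -2.62 (difference -0.29 ± 0.21 (adjusted p = 0.37)), and ENO2, at -2.35 and -1.94 (difference 0.41 ± 0.21 (adjusted p = 0.165)), the difference did not pass. SCD itself changed by -4.33 and -4.15, a difference of 0.18 ± 0.22 (adjusted p = 0.616) that did not pass.

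**Figure D4:**
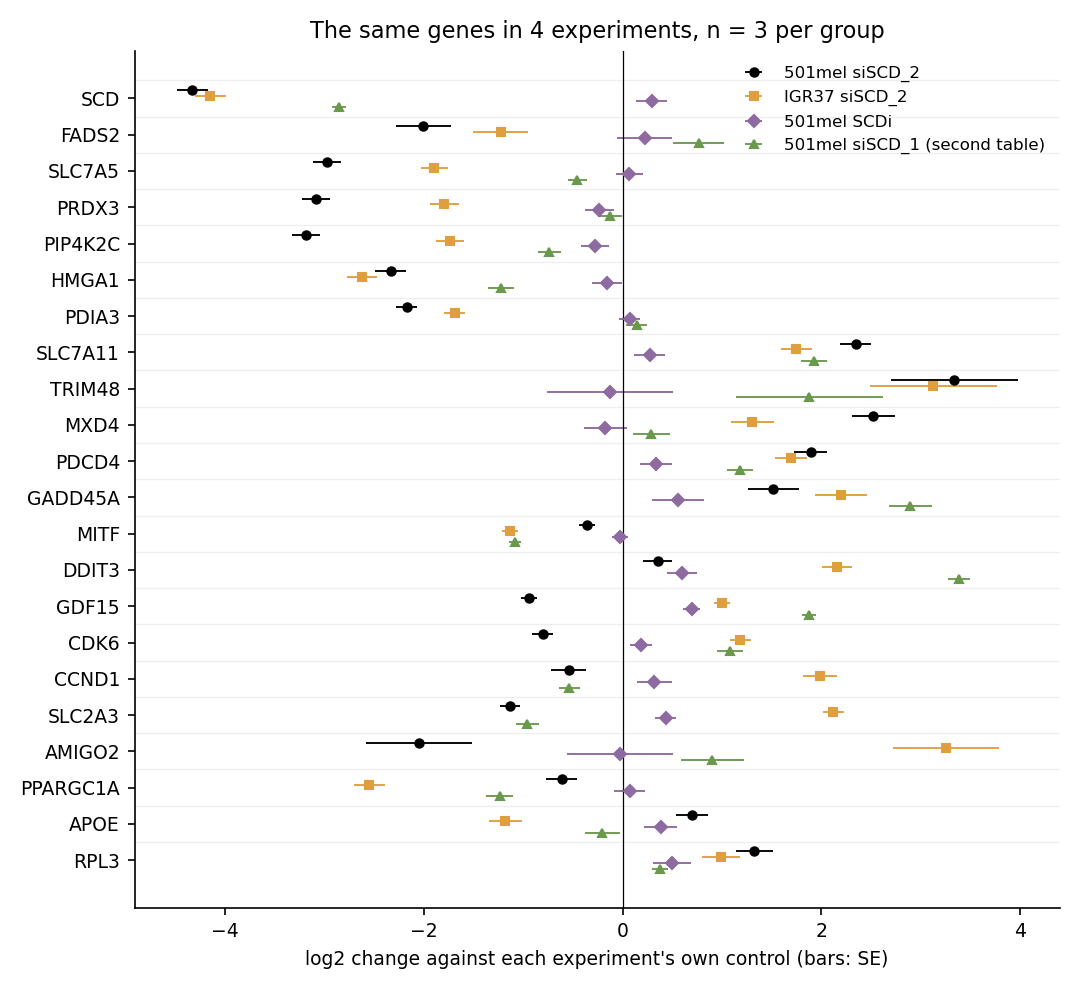
Log2 change of 22 genes (horizontal axis, with SE bars, n = 3 per group) in 4 experiments, each against its own controls. GDF15, CDK6, CCND1, SLC2A3 and AMIGO2 lie left of 0 in 501mel with siSCD_2 and right of it in IGR37 with the same siRNA, and the inhibitor values of the 22 genes lie between -0.28 (PIP4K2C) and 0.69 (GDF15).

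Against the inhibitor of the enzyme in the same line, with its own DMSO controls, the siSCD_2 effect differed for 21.0% of genes, 1271 higher and 1534 lower (55 and 7059 on the spike-in scale). SCD mRNA changed by 0.29 with the inhibitor, which acts on the protein, and the difference was -4.62 ± 0.22 (adjusted p = 3.46e-13). None of these falls passed with it: SLC7A5 changed by 0.07 ± 0.14 (adjusted p = 0.935), PRDX3 by -0.23 ± 0.14 (adjusted p = 0.628) and PDIA3 by 0.07 ± 0.10 (adjusted p = 0.892). The differences from siSCD_2 were -3.04 ± 0.19 (adjusted p = 3e-11), -2.85 ± 0.20 (adjusted p = 1.33e-10) and -2.24 ± 0.15 (adjusted p = 4.47e-11). Some ISR genes that rose with siSCD_2 also passed with the inhibitor, where ATF4 changed by 0.69 ± 0.14 (adjusted p = 0.0188), CHAC1 by 1.15 ± 0.24 (adjusted p = 0.0271), ASNS by 0.88 ± 0.16 (adjusted p = 0.00823) and SESN2 by 1.44 ± 0.15 (adjusted p = 1.55e-05). The difference from siSCD_2 was 0.40 ± 0.34 (adjusted p = 0.446) for CHAC1 and 0.67 ± 0.22 (adjusted p = 0.0278) for SESN2. SLC7A11 was at 2.35 and 0.27 (difference 2.07 ± 0.22 (adjusted p = 1.26e-07)). GDF15 was at -0.94 and 0.69, a difference of -1.64 ± 0.12 (adjusted p = 1.46e-10). Replication genes had a median of -0.48 with siSCD_2 and 0.01 with the inhibitor, and 20 of 39 were lower with the siRNA by the test of the difference.

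The other SCD siRNA, siSCD_1, was deposited in a table normalised on its own with a control siCTR_1, so its changes stand beside these with no test across the tables. There 20.9% of 13066 genes rose and 22.0% fell. Over 12896 genes in both tables, 923 rose with both siRNAs, 38.1% of the siSCD_2 rises and 34.2% of the siSCD_1 rises, and 1039 fell with both (40.0 and 36.1%). Another 369 rose with siSCD_2 and fell with siSCD_1, and 338 fell and rose. Of the ISR list 16 rose and 1 fell with siSCD_1 (median 1.49), and DDIT3 changed by 3.39 against 0.35 with siSCD_2. Of the ER folding list 19 rose and 3 fell, with PDIA3 at 0.14 and -2.17. Replication genes had medians of -0.50 and -0.48, and GINS1 changed by -3.11 and -2.27. Of the 58 cytosolic ribosomal genes 5 rose and 45 fell with siSCD_1. SLC7A5, PRDX3 and PIP4K2C changed by -0.46, -0.12 and -0.74 with siSCD_1. SLC7A11, SESN2 and NUPR1 changed by 1.93, 3.16 and 2.91, HMGA1 by -1.23 and CXCL8 by 5.63, in each case with the sign seen with siSCD_2.

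An siRNA can lower transcripts that match its first bases in their 3' untranslated region (UTR), so 3' UTR words were described without a test. Among 6323 genes with a level not under the median and an annotated 3' UTR, 25.0% rose and 25.3% fell. Of words of 7 letters, 12085 were held by at least 200 genes. The word with the lowest median change was TCCCGGC (-0.13 over 291 genes), followed by TCTGATC (-0.10 over 584 genes, 35.1% of which fell). Genes with TCTGATC had medians of 0.00 in IGR37 with the same siRNA and -0.05 with siSCD_1. The medians of all these genes, with or without the word, were 0.06 and -0.10 there, and 0.00 with siSCD_2 in 501mel. ATTACAA had the highest median (0.17 over 861 genes, 36.6% of which rose). The 50 lowest words had a mean of 1.64 letters A or T and the 50 highest 4.52, against 3.76 over all words. The lowest words were thus poor in A and T and the highest rich in them, and none can be tied to the siRNA without its sequence, which is not given in the sources used here.

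Changes also moved with the length of the 3' UTR. With these genes in 4 equal parts by length, from the shortest (50 to 604 bases) to the longest (2842 to 32870 bases), the median change with siSCD_2 in 501mel was -0.07, -0.01, 0.05 and 0.08. The share that rose was 19.0% in the shortest and 29.3% in the longest part, and the share that fell 28.4 and 23.8%. In IGR37 the medians went from -0.07 to 0.15 and with siSCD_1 from -0.22 to 0.02, but with the inhibitor they were 0.01 and -0.02. The part of UTR length in the changes of single genes was not tested.

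**Figure D5:**
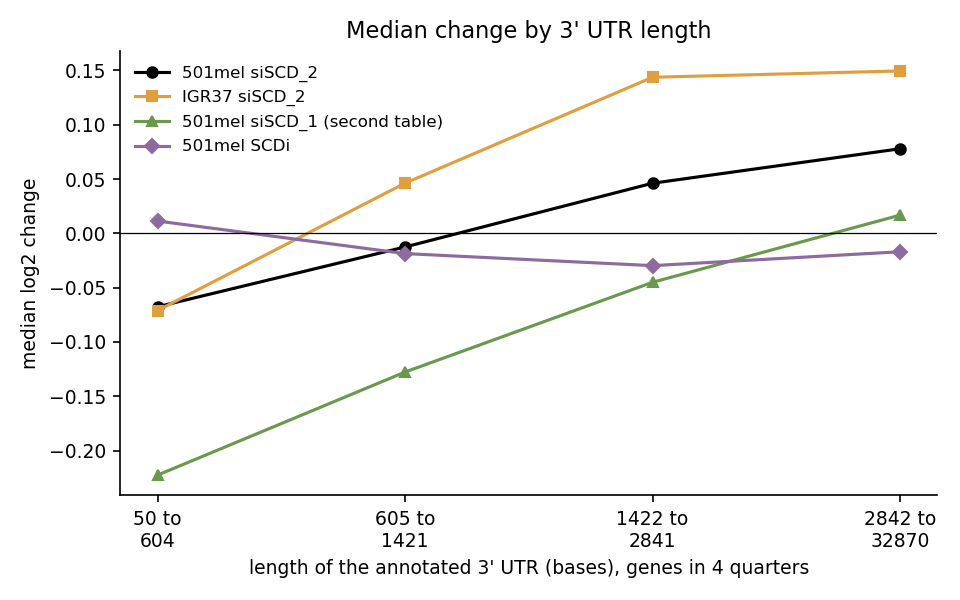
Median log2 change (vertical axis) of genes whose level was not under the median, in 4 equal parts by the length of the annotated 3' UTR in bases (horizontal axis). The siSCD_2 lines of both cell lines and the siSCD_1 line climb with length, and the inhibitor line stays between -0.03 and 0.01.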

How the data were processed

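RNA of 501mel and IGR37 was extracted with RNeasy, and 500 ng went into QuantSeq Forward libraries, which read 3' ends, per the labels' protocols. The submitters' processing notes name STAR, edgeR and the build hg38, and their versions and settings are not given in the sources used here. The authors deposited log2 values in 2 tables normalised separately, of 24 libraries (13364 genes) and 12 libraries (13066 genes). Every value of the first table was log2 CPM with a prior count of 0.25 that gave whole reads to within 0.000426 reads. The main test left out Mitf-FLAG and the spike-ins (66 in the first table), and 1 alternative was centred on the 30 abundant ones. The tables give gene symbols, and identifiers, coordinates on hg38 and 3' UTRs came from GENCODE 29, and promoters from RefSeq GRCh38.p14 tables (10515 of 13364 genes matched, 558 through an older symbol).

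The first table was fitted with limma 3.58.1 in R 4.3.3 (lmFit, contrasts.fit, and eBayes with trend), with all 24 libraries sharing the spread. Tests were two-sided with Benjamini-Hochberg adjustment, and passing means an adjusted p under 0.05. The contrasts were siSCD_2 against siCTR in 501mel, its difference from IGR37 and its difference from the inhibitor effect. All 3 share the 501mel siSCD_2 and siCTR libraries. The siSCD_1 values came from the same kind of fit of the second table. The last IGR37 siSCD_2 column was placed by its group, since its label has another number. The script was tested on simulated data. Figures and tables used Python 3.11.15, pandas 2.3.3, numpy 2.4.6, scipy 1.17.1 and matplotlib 3.10.9.

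The comparison and the gene lists were chosen with earlier results of these data known. Named genes were SCD, MITF, ATF4, SLC7A5, AXL, all desaturases, the 15 largest rises and falls (passing, groups not overlapping, level not under the median of 4.14 log2 CPM), and, per list, the first member, the 6 with the smallest adjusted p and 2 against the list's median. The 8 largest differences in each direction from IGR37 and from the inhibitor were added under the same conditions. ATF5, EIF2AK3, DDIT3, INSIG2, MRPL18, CDK4, CDKN1C, PCNA and HSPA5, and members whose values are given because they did not pass, were named after their values were seen. A few genes meeting this rule are not reported here. No mitochondrially encoded gene was in the table. The alternatives concerned the low-value filter, the libraries fitted, the trend, a pseudocount of 1, the scaling (quantile, median, spike-ins), library weights, voom weights, a replicate block and each library left out.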

Additional observations from a re-analysis of the deposited data

Results flagged for a closer look

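The siSCD_2 effect differed between the lines by the test of the difference itself (IGR37 minus 501mel, limma with Benjamini-Hochberg adjustment). In all, 25 of the genes reported here passed in both lines with opposite signs, all on the log2 scale. In 19 of them the gene fell in 501mel and rose in IGR37, with differences of 1.02 for ACSL1, 0.82 for AIFM2, 5.30 for AMIGO2, 2.53 for CCND1, 1.32 for CDC25A, 1.99 for CDK6, 2.34 for CTGF, 0.96 for FADS3, 1.94 for GDF15, 2.38 for IER3, 1.38 for ITGB5, 1.39 for ITGB8, 1.13 for KEAP1, 1.37 for NEU1, 1.60 for PHLDA1, 1.67 for PHLDA3, 1.94 for SLC2A1, 3.25 for SLC2A3 and 1.54 for STAT2. In the other 6 it rose in 501mel and fell in IGR37, with differences of -1.88 for APOE, -0.85 for CENPA, -0.75 for DARS, -2.66 for FAM212B, -2.03 for LRFN4 and -2.05 for TRIM63.

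The 10 remaining genes are among the largest differences in each direction, with one line or both past the test: 3.67 for CDKN2B, 3.47 for CYP1A1, 2.69 for DLX2, 2.69 for IGFBP5, -1.91 for LDB3, -1.93 for PPARGC1A, -1.89 for PRKCB, -2.39 for RBMS3, 2.93 for SORBS2 and 2.82 for TFCP2. On the spike-in scale CENPA, DARS and FADS3 no longer passed the test of the difference (-0.74, -0.64 and 1.07).

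Spike-in RNA was counted in the read totals that scale the genes, and served as the reference only in the alternative centred on it. It stood 0.43 log2 higher in the 501mel siSCD_2 libraries than in the siCTR libraries, without overlap in their share of reads.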

How the results depend on the processing

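The numbers of genes that rose and fell (2447 and 2612) moved to 413 and 4062 when centred on the spike-ins. Apart from these and the replicate block, every alternative kept them within 1.5 times. The difference from IGR37 moved from 1553 higher and 1266 lower to 538 and 238 with spike-ins and to 2336 higher with library weights, and the difference from the inhibitor from 1271 and 1534 to 55 and 7059 with spike-ins. The cause was not tested. Without each of the 6 libraries in turn, 2063 to 2191 genes rose and 2278 to 2409 fell, the lines differed for 1302 to 1460 and 1051 to 1176 genes, the inhibitor for 1070 to 1182 and 1368 to 1514, and SCD stayed at -4.40 to -4.26. A fit with the replicate number as a block gave 1390 rises and 1500 falls. Equal numbers correlated at -0.19, 0.14 and -0.10 in their deviations, so the numbers were not taken as pairs. Unequal numbers correlated at -0.20 to 0.24, and a pairing under other numbers was not tested.

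Of 262 named genes that passed, 154 kept their call under every alternative, 76 lost it with spike-ins, 48 with the block, 18 when only the 6 libraries were fitted and 28 under at least 1 alternative other than spike-ins and block. Changes that turned negative with spike-ins were -0.0599 for COX4I1, -0.0192 for DARS, -0.0581 for DNAJB1, -0.00123 for FDFT1, -0.0582 for GNL3, -0.00711 for HSF1, -0.0726 for ID3, -0.0832 for LARS, -0.186 for LDHB, -0.188 for MRPS25 and -0.0716 for UQCRQ. Of 70 counts over gene lists, 48 moved by over 1.5 times with spike-ins, 33 with the block and 13 with only the 6 libraries, and of 420 with a library left out 34 did. With the block, oxidative phosphorylation had 2 rises and 3 falls, dedifferentiated and invasive genes 0 and 3, and phospholipid genes 2 and 6. Depth limits genes with under 30 reads over the 6 libraries, of which 222 of 1616 passed.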
